A study of Caenorhabditis elegans with 12 samples.

Results

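The 81 genes described here are named as cytosolic ribosomal protein genes of Caenorhabditis elegans. They were taken by name alone, as every gene whose name starts with rpl-, rps- or rla-, and what each encodes was not checked. They are 81 of the 20222 genes listed: 47 named rpl- (large subunit), 31 named rps- (small subunit) and 3 named rla- (the acidic proteins of the large subunit's stalk). Levels are in TPM, reads scaled by transcript length to the same total in each library, and all 81 genes reached at least 1 TPM in at least 3 libraries and entered the test, among 13650 genes tested.

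Ribosomes translate mRNA into protein, and each subunit is built from ribosomal RNA and one copy of most of its proteins. The mRNAs of these proteins are among the most abundant of growing cells and usually move together. In adult hermaphrodites a large part of the body's mass is germline, whose oocytes are loaded with ribosomes. Several ribosomal proteins of the worm are encoded by a pair of genes on different chromosomes, and the X chromosome is largely silent in the germline.

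Polyadenylated RNA of whole worms at day 1 of adulthood was sequenced, with 3 libraries, described as biological replicates, for each of 4 strains grown at 20 °C on E. coli OP50. AV477 carries dsb-2(me96), in a gene that promotes meiotic double-strand breaks. AV157 carries spo-11(me44), in the gene of the enzyme that makes these breaks. TY4986 carries htp-3(y428), in the gene of a meiotic chromosome axis protein. N2 is the laboratory wild type. Each mutation was studied in 1 strain, so its effect and that of anything else in which the strain departs from N2 cannot be told apart. The sources used here do not state zygosity or any balancer. The 3 comparisons with N2 share the N2 libraries.

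The libraries held 32422219 to 42527086 mapped reads, of which 78.8% to 97.9% lay on listed genes, the lowest share being that of dsb-2 replicate 1. Reads on the 81 genes numbered 2779897 to 5954606 per library. The dsb-2 transcript was lower than in N2 in the dsb-2 strain (log2 fold change -1.61) and the htp-3 transcript in the htp-3 strain (-2.82). Smaller falls were seen in other strains: htp-3 in spo-11 (-1.18), and dsb-2 in spo-11 (-0.53) and in htp-3 (-0.87). The dsb-2 transcript had at most 20.1 TPM in its own strain and at least 21.2 TPM in every other library. The htp-3 transcript had at most 12.3 TPM in its own strain and at least 25.3 TPM in every other library. A fall alone is therefore not specific to 1 strain, but the lowest values of each transcript were those of its own strain. The spo-11 transcript in the spo-11 strain did not differ from N2 beyond its error (log2 fold change 0.16 ± 0.26, SE; limma adjusted p = 0.569), so that label is not checked by its gene. TPM is a share of each library, so a lower value is a smaller share of the mRNA and not a count of molecules per worm. In whole worms, fewer cells of a type and less RNA per cell cannot be told apart.

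The 81 genes together made up 26.5%, 23.02% and 23.97% of all TPM in the dsb-2 libraries, 17.2%, 18.2% and 17.6% in spo-11, 20.7%, 20.998% and 20.9% in htp-3, and 27.2%, 24.16% and 28.9% in N2. Every spo-11 library was below every htp-3 library, every htp-3 library was below every N2 library, and the dsb-2 and N2 libraries overlapped. The means were 24.5% ± 1.80 in dsb-2, 17.7% ± 0.500 in spo-11, 20.9% ± 0.127 in htp-3 and 26.7% ± 2.42 in N2 (SD, n = 3 each). The summed TPM was 0.660 times that of N2 in spo-11 and 0.781 times in htp-3, and 1.18 times as high in htp-3 as in spo-11. Exact two-sided permutation tests gave p = 0.1 for each of these 3 ratios, the smallest p that 3 against 3 libraries allow, and p = 0.2 for dsb-2 (ratio 0.916).

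The balance between the subunits varied little. The summed TPM of the rpl- genes over that of the rps- genes was 1.33 ± 0.0419 in dsb-2, 1.38 ± 0.0119 in spo-11, 1.38 ± 0.00555 in htp-3 and 1.33 ± 0.0546 in N2 (SD, n = 3 each), and the N2 libraries overlapped those of each mutant (exact two-sided permutation p = 0.9, 0.3 and 0.4 against N2). Fewer of the genes stood among the 100 most abundant of a spo-11 library (52 to 56) or an htp-3 library (53 to 59) than of a dsb-2 library (66 to 67) or an N2 library (66 to 72).

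**Figure D1:**
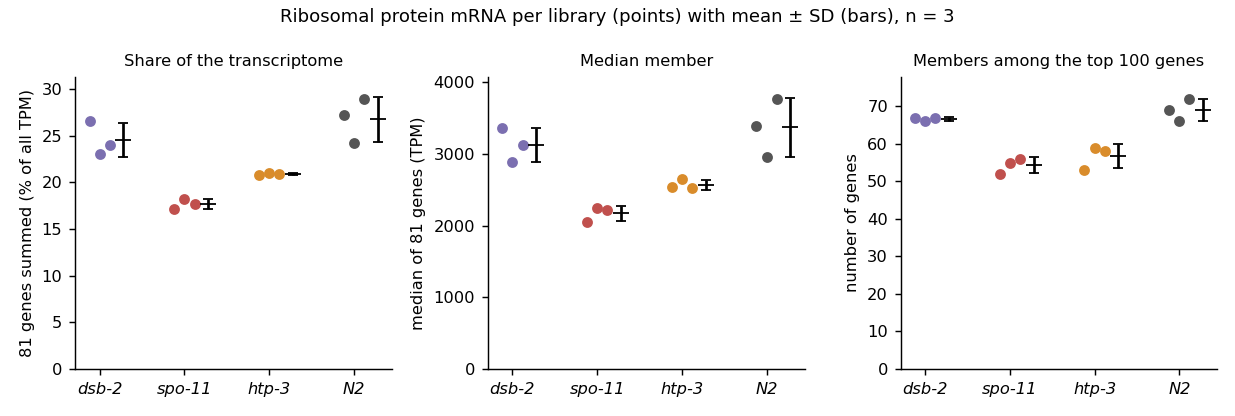
Ribosomal protein mRNA in the 3 libraries of dsb-2, spo-11, htp-3 and N2: the sum of the 81 genes (percent of TPM), their median (TPM) and the number among the 100 most abundant genes. Points are libraries and bars the mean ± SD; the spo-11 libraries (17.2% to 18.2%) and htp-3 libraries (20.7% to 20.998%) lie below the N2 libraries (24.16% to 28.9%) in the first panel.

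In N2 the genes other than rpl-42 spanned strain means of 210 TPM (rpl-24.2) to 9869 TPM (rpl-41.2), with a median of 3321 TPM. After rpl-41.2 the highest were rps-23, a protein near the decoding centre of the small subunit, at 6624 TPM, rps-25 at 6099.8 TPM, rpl-10 at 5677 TPM and rpl-27 at 5309 TPM. At the low end, rpl-24.2 was followed by rpl-25.1 at 268 TPM, rpl-37 at 389 TPM and rpl-11.2 at 448 TPM. Of these, rpl-24.2, rpl-25.1 and rpl-11.2 each share their number with a far more abundant gene (rpl-24.1, rpl-25.2 and rpl-11.1). The rpl-42 gene was barely detected in N2, at 0, 0.0626 and 0.0513 TPM.

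In spo-11 the mRNAs of nearly the whole ribosome took a smaller share than in N2: 72 of the 81 genes were lower and 3 were higher at a limma adjusted p under 0.05 (Benjamini-Hochberg over all genes tested). Of all genes tested, 22.1% were lower and 55.6% higher in this comparison. Genes that reached 1 TPM in the 3 libraries of 1 strain alone were not counted. Their higher calls in that strain follow from the filter, so the shares and medians of all genes, here and below, are in part set by it. The median log2 fold change of the 81 genes, on the log2(TPM + 1) scale used throughout, was -0.57, and that of all genes tested was 0.80. By class, 40 of 47 rpl- genes, 29 of 31 rps- genes and 3 of 3 rla- genes were lower. In 71 genes all 3 spo-11 libraries lay below all 3 N2 libraries, as in 26.7% of all genes tested. Of the 3 higher genes, rpl-42 met the filter on low values through its spo-11 libraries alone, so its call followed from the filter and is no evidence. The 6 genes not called were rpl-24.2, rpl-29, rpl-39, rpl-41.1, rps-20 and rps-28, at -0.38 to 0.04.

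The fall was deepest in rpl-11.1, described with its partner below, and next in rpl-37, a large-subunit protein at a low level. The rpl-37 mRNA had 123, 144 and 192 TPM in spo-11, against 424, 261 and 481 TPM in N2. The groups did not overlap, and the log2 fold change was -1.32 ± 0.25 (SE; limma adjusted p = 0.000161). This gene lies wholly within pitp-1 on the other strand, at 1.93 to 7.43 TPM, and how reads of the pair were assigned is not known here. Nor is it known whether reads were shared between rpl-37 and W01D2.1 (rpl-37.1 in RefSeq), as their sequences were not compared. Among the stalk proteins, which bring elongation factors to the ribosome, rla-1 had 1617, 1868 and 1877 TPM in spo-11, against 3931, 3281 and 4192 TPM in N2. All spo-11 libraries of rla-1 were below all N2 libraries (-1.08 ± 0.14, SE; limma adjusted p = 5.33e-06). The other stalk genes changed less, rla-0 by -0.73 ± 0.15 and rla-2 by -0.43 ± 0.13 (SE).

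Further large falls in spo-11 were those of rpl-25.2 (-1.08), rpl-30 and rpl-9. The rpl-30 gene had 939.5, 1169 and 1068 TPM in spo-11, against 2190.0, 1716 and 2606 TPM in N2 (-1.02 ± 0.15, SE; limma adjusted p = 1.50e-05). The rpl-9 gene had 1246, 1538.5 and 1469 TPM in spo-11, against 2914, 2194 and 3127 TPM in N2 (-0.94 ± 0.15, SE; limma adjusted p = 4.86e-05). Neither gene's groups overlapped. Among small-subunit genes, rps-23 changed by -0.94 ± 0.14 and rps-14 by -0.93 ± 0.12, the largest falls of the rps- genes (SE).

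In htp-3 the same direction was seen at a smaller size: 55 of the 81 genes were lower, 2 were higher and 24 were not called. Of all genes tested, 19.7% were lower and 39.5% higher. The median log2 fold change of the 81 genes was -0.36, and that of all genes tested was 0.27. By class, 31 of 47 rpl- genes, 22 of 31 rps- genes and 2 of 3 rla- genes were lower. In 55 genes all htp-3 libraries lay below all N2 libraries, as in 20.2% of all genes tested. The count of lower genes rested in part on single libraries, being 28 without N2 replicate 3, 30 without N2 replicate 1, 33 without htp-3 replicate 1 and 34 without htp-3 replicate 3, while the median stayed between -0.43 and -0.30.

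After rpl-37 and rpl-11.1, the lowest called genes in htp-3 were rpl-25.2, rpl-24.2, rla-1 and rps-23. The rpl-37 mRNA had 189, 203 and 191 TPM in htp-3, against 424, 261 and 481 TPM in N2, with no overlap (-0.95 ± 0.25, SE; limma adjusted p = 0.00442). The rla-1 mRNA had 2353, 2761 and 2701 TPM in htp-3, against 3931, 3281 and 4192 TPM in N2, again with no overlap (-0.54 ± 0.14, SE; limma adjusted p = 0.00508). The rps-23 mRNA had 4884, 4143 and 4779 TPM in htp-3, against 7164, 6092 and 6616 TPM in N2, and did not overlap either (-0.53 ± 0.14, SE; limma adjusted p = 0.00540). Of the other stalk genes, rla-2 was lower (-0.34, limma adjusted p = 0.0338), a call lost without htp-3 replicate 1 or 2 or any one N2 library, and rla-0 was at -0.31 (limma adjusted p = 0.0793).

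Against N2, 54 genes were called lower in both spo-11 and htp-3, 18 passed the threshold as lower in spo-11 and not in htp-3, and 1 (rpl-24.2) in htp-3 and not in spo-11. The share of all genes tested that was lower in both strains is not given here, so the 54 cannot be read as particular to the family. As the 2 comparisons with N2 share the N2 libraries, the strains were also compared directly. Of the 81 genes, 22 were higher and 2 lower in htp-3 than in spo-11, and the median log2 difference was 0.21. Of all genes tested, 8.1% were higher and 38.6% lower, with a median of -0.32. The count of 22 fell to 9 without spo-11 replicate 1, 9 without spo-11 replicate 3, 11 without htp-3 replicate 1 and 12 without htp-3 replicate 2, and was 9 with limma-voom on rebuilt reads.

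The 6 highest of the 22 were rpl-11.1, rpl-41.2, rpl-9, rps-14, rps-2 and rla-1, at 0.54 to 0.74. The rps-14 mRNA was tightest, with 3723, 3524 and 3597 TPM in htp-3, against 2307, 2369 and 2336 TPM in spo-11 (0.63 ± 0.12, SE; limma adjusted p = 0.000517). The rps-2 mRNA had 2613, 2651 and 2199 TPM in htp-3, against 1516, 1737 and 1627 TPM in spo-11 (0.61 ± 0.15, SE; limma adjusted p = 0.00328). Neither gene overlapped between the strains. The 2 lower genes were rpl-42 and rpl-24.2. The rpl-42 gene met the filter through its spo-11 libraries alone, so its call is no evidence. Without any one spo-11 library it no longer met the filter, and the count was 0 without spo-11 replicate 1 and 1 without spo-11 replicate 2 or 3.

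TPM puts every library on the same total, so the comparisons were repeated with another scaling. Under median-of-ratios scaling the all-gene median moved to 0.16 in spo-11 and 0.07 in htp-3 against N2 and to 0.04 in htp-3 against spo-11. Higher calls then made up 52.5% of all calls in spo-11, 47.0% in htp-3 and 45.9% between the mutants, against 71.6%, 66.8% and 17.4% with TPM. Of the 13650 genes tested, 5449 were then lower and 6033 higher in spo-11, and 4743 lower and 4213 higher in htp-3. In htp-3 against spo-11, 3603 were lower and 3062 higher. The ribosomal protein median was -1.41 in spo-11, with 78 of 81 genes lower, and -0.79 in htp-3, with 75 lower. Between htp-3 and spo-11 it was 0.62, with 54 genes higher and 1 lower. The distance of the 81 genes from all genes changed less: -1.38 with TPM and -1.57 with median-of-ratios in spo-11, -0.63 and -0.86 in htp-3.

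In dsb-2 no ribosomal protein gene was called, higher or lower, with 0.264% of all genes tested called in either direction. Without adjustment, at p under 0.05, limma gave 18 lower and 1 higher gene of the 81, and limma-voom on rebuilt reads called 0 and gave 29 in either direction. The share of all genes at that unadjusted threshold is not given here, so these counts cannot be read as particular to the family. The median was -0.10, and that of all genes tested 0.02. The lowest value was that of rpl-41.2, with 7494, 6916 and 5172 TPM in dsb-2, against 8461, 9587 and 11558 TPM in N2. These groups did not overlap, but the gene was not called (-0.60 ± 0.17, SE; limma adjusted p = 0.365).

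**Figure D2:**
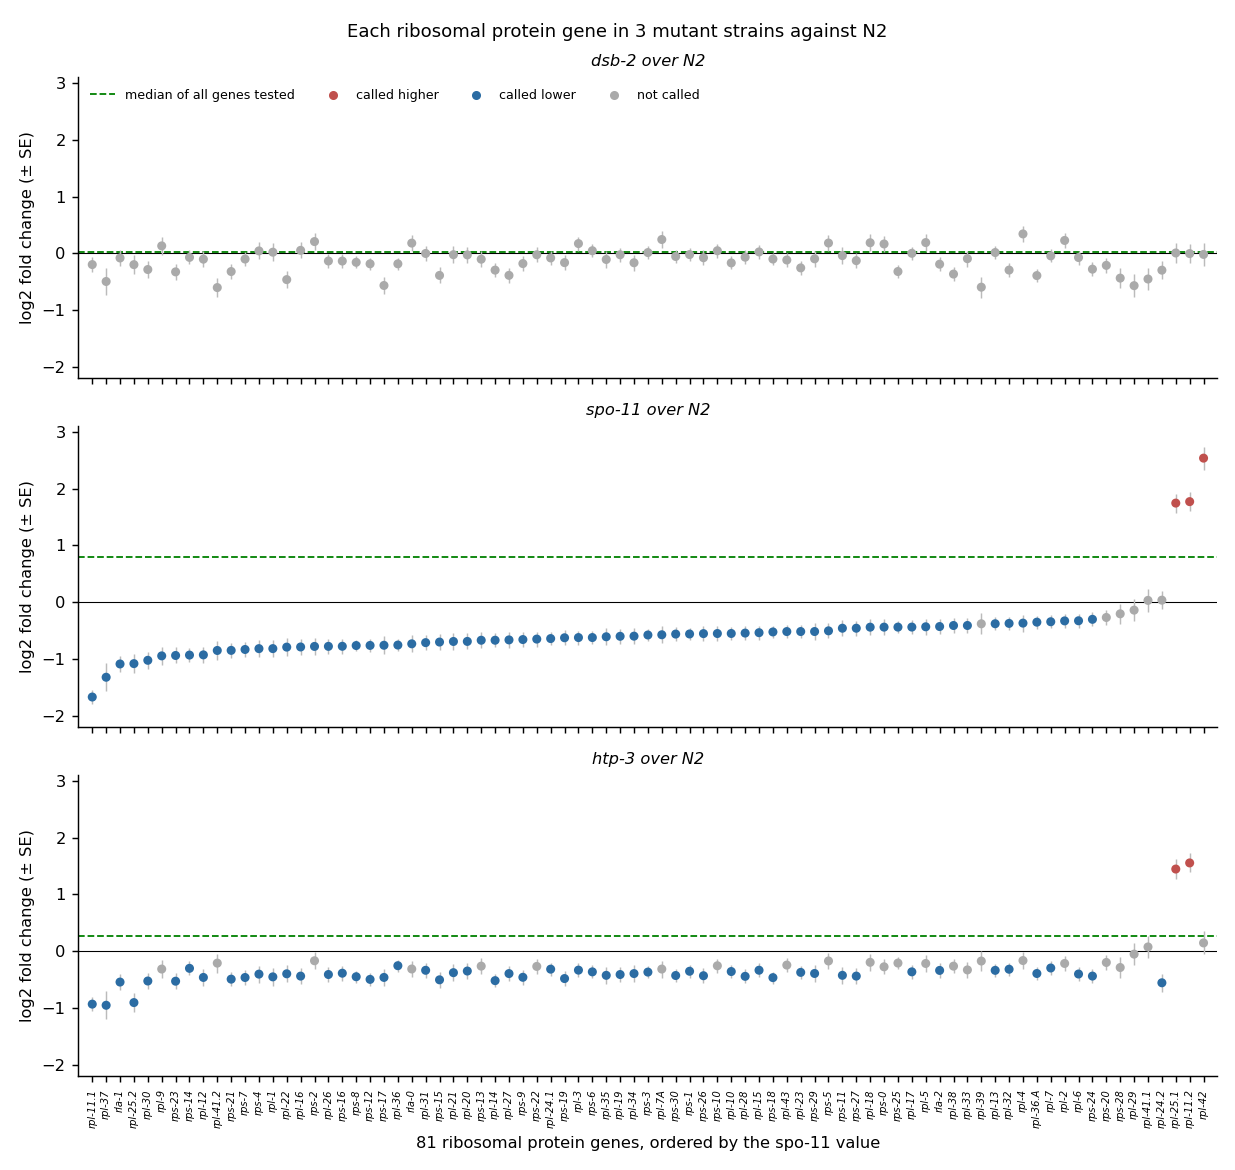
Log2 fold change against N2, with its SE, of each of the 81 genes in dsb-2, spo-11 and htp-3, ordered by the spo-11 value; colour marks genes called lower, higher or not called, and the dashed line is the median of all genes tested. In spo-11 (72 lower, 3 higher) and htp-3 (55 lower, 2 higher) the genes form a band below 0 from which rpl-11.2 and rpl-25.1 stand out upward. The highest point in spo-11 is rpl-42 (2.54), whose call follows from the filter and is no evidence.

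The genes that rose against the rest were chiefly the X-linked partners of autosomal genes. Both ribosomal protein genes on the X chromosome, rpl-11.2 (2241738 to 2242618, WBcel235, minus strand) and rpl-25.1 (4715178 to 4715801, plus strand), were higher in spo-11 and in htp-3. Their partners are rpl-11.1 on chromosome V (3585313 to 3586064, minus strand) and rpl-25.2 on chromosome I (8329062 to 8329684, minus strand), and both partners were lower. The rpl-11 genes encode the worm's counterparts of RPL11, which binds the 5S ribosomal RNA, and the rpl-25 genes those of RPL23A, at the exit of the tunnel through which the new protein leaves. Partner genes of this kind are alike in sequence, and how the authors' counting shared reads between them is not given in the sources used here, so each gene's value is less certain than the pair's sum.

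The rpl-11.2 mRNA had 1661, 1594 and 1352 TPM in spo-11, 1591, 1076 and 1332 TPM in htp-3, and 409, 453 and 484 TPM in N2. Every library of spo-11 and htp-3 was above every N2 library. The log2 fold change was 1.77 ± 0.17 in spo-11 (SE; limma adjusted p = 1.57e-07) and 1.55 ± 0.17 in htp-3 (SE; limma adjusted p = 8.60e-06). With median-of-ratios scaling these values were 0.93 and 1.13, and both calls held (adjusted p = 0.00105 and 0.000528).

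The rpl-11.1 mRNA had 1318, 1350.4 and 1408 TPM in spo-11, 1889.5, 2434 and 2523 TPM in htp-3, and 4434, 4481 and 4035 TPM in N2. All spo-11 libraries were below all htp-3 libraries, and these below all N2 libraries. The log2 fold change was -1.67 ± 0.13 in spo-11 (SE; limma adjusted p = 2.09e-08), the deepest fall of the 81 genes, and -0.93 ± 0.13 in htp-3 (SE; limma adjusted p = 5.67e-05). Between htp-3 and spo-11 it differed by 0.74 ± 0.13 (SE; limma adjusted p = 0.000195), while rpl-11.2 did not pass the threshold (-0.22 ± 0.17, SE; limma adjusted p = 0.311), and its sign changed to 0.20 with median-of-ratios scaling.

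Within the pair, rpl-11.2 supplied 53.0% ± 3.53 of the pair's TPM in spo-11 and 37.0% ± 7.82 in htp-3, against 10.6% ± 0.930 in dsb-2 and 9.44% ± 1.15 in N2 (SD, n = 3 each). In spo-11 the minor gene of the pair reached the level of the major one. The share did not overlap between spo-11, htp-3 and N2, and each of these differences had an exact permutation p of 0.1, the smallest possible. The summed TPM of the pair was 2894 ± 118 in spo-11, 3615 ± 208 in htp-3 and 4765 ± 218 in N2 (SD, n = 3 each), so the pair as a whole was lower in both mutants, at 0.607 and 0.759 times N2.

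The rpl-25 pair moved in the same way. The rpl-25.1 mRNA had 870.1, 962 and 837 TPM in spo-11, 881, 606 and 704 TPM in htp-3, and 233, 237 and 333 TPM in N2, with no overlap between either mutant and N2. Its log2 fold change was 1.75 ± 0.17 in spo-11 (SE; limma adjusted p = 2.13e-07) and 1.45 ± 0.17 in htp-3 (SE; limma adjusted p = 1.61e-05). With median-of-ratios scaling the values were 0.91 and 1.02 (adjusted p = 0.00206 and 0.00158).

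The rpl-25.2 mRNA had 1226, 1729 and 1611 TPM in spo-11, 1574, 1945 and 1609 TPM in htp-3, and 3261, 2568 and 3843 TPM in N2. Both mutants lay below N2 and overlapped each other. Its log2 fold change was -1.08 ± 0.16 in spo-11 (SE; limma adjusted p = 2.13e-05) and -0.90 ± 0.16 in htp-3 (SE; limma adjusted p = 0.000397). The X-linked gene supplied 37.1% ± 3.86 of this pair's TPM in spo-11 and 30.03% ± 6.07 in htp-3, against 8.76% ± 0.771 in dsb-2 and 7.70% ± 0.923 in N2 (SD, n = 3 each). The share in htp-3 overlapped that in spo-11 (exact permutation p = 0.3), and the pair's sum was 0.691 and 0.699 times that of N2.

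In dsb-2 neither pair shifted beyond its error. The rpl-11.2 mRNA had 549, 419 and 386 TPM in dsb-2, against 409, 453 and 484 TPM in N2 (-0.00 ± 0.17, SE; limma adjusted p = 0.999), and rpl-25.1 had 298, 246 and 255 TPM in dsb-2, against 233, 237 and 333 TPM in N2 (0.01 ± 0.17, SE; limma adjusted p = 0.998). The libraries of dsb-2 and N2 overlapped for both genes.

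**Figure D3:**
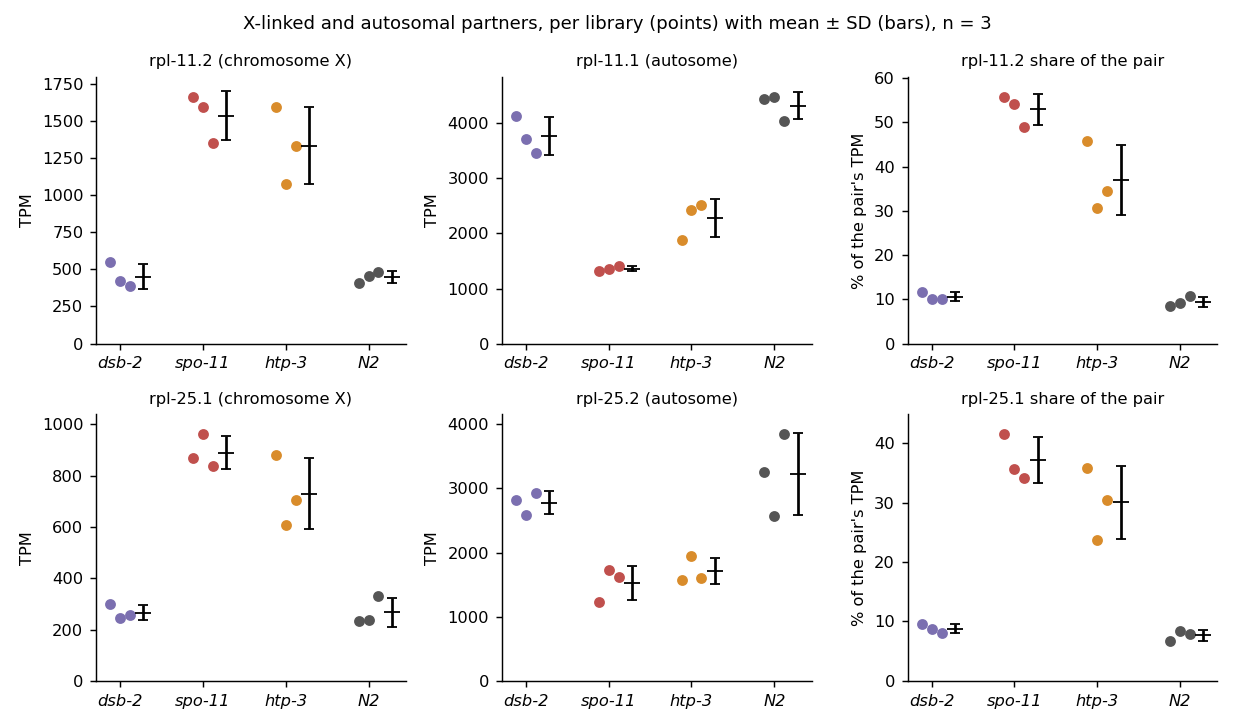
TPM of the X-linked gene, TPM of the autosomal partner and the X-linked gene's share of the pair (percent) for rpl-11.2 with rpl-11.1 (top) and rpl-25.1 with rpl-25.2 (bottom), in dsb-2, spo-11, htp-3 and N2. Points are libraries and bars the mean ± SD; the share of rpl-11.2 averages 53.0% in spo-11 and 37.0% in htp-3, against 9.44% in N2.

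Ribosomal protein genes are few on the X chromosome: 2 of 81 (2.47%), whereas 13.6% of all genes tested lie there. X-linked genes as a whole were often higher in these strains. In spo-11, 80.7% of 1861 X-linked genes tested were called higher and 3.65% lower, against 51.5% and 24.98% of 11777 autosomal genes, and in htp-3 63.1% and 3.87%, against 35.8% and 22.2%. Genes that met the filter through 1 mutant's libraries alone were not counted on either kind of chromosome. Their higher calls follow from the filter, so these shares are in part set by it. Of the 79 autosomal ribosomal protein genes, 72 were lower and 1 higher in spo-11. The 1 higher gene was rpl-42, whose call follows from the filter and is no evidence. In htp-3 55 of the 79 were lower and 0 higher by limma, with 0 higher at an unadjusted p under 0.05 as well.

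Other genes that share a number lie on autosomes, and apart from rpl-41.1 and rpl-41.2 they are not treated here as copies of each other. On chromosome I, rpl-24.2 (9669415 to 9670098) had 255, 172 and 227 TPM in spo-11, 127, 144 and 158 TPM in htp-3, and 201, 196 and 233 TPM in N2. It was lower in htp-3 than in N2 (-0.55 ± 0.16, SE; limma adjusted p = 0.00872), and spo-11 overlapped N2 (0.04 ± 0.16, SE; limma adjusted p = 0.833). With median-of-ratios scaling the spo-11 value was -0.80 and the gene was called lower (adjusted p = 0.000637). The difference between htp-3 and spo-11 was -0.59 ± 0.16 (SE; limma adjusted p = 0.00669), but -0.18 with median-of-ratios scaling (adjusted p = 0.407) and -0.47 without spo-11 replicate 1 (adjusted p = 0.0540). This gene lies wholly within C03D6.1 on the other strand, at 1.05 to 7.47 TPM.

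The rpl-24.1 mRNA was lower in spo-11 (-0.64 ± 0.12, SE; limma adjusted p = 0.000132) and in htp-3 (-0.31 ± 0.12, SE; limma adjusted p = 0.0305). The second call was lost in 8 of 15 alternatives: without htp-3 replicate 1 or 3 or N2 replicate 1 or 3, with the replicate number as a block, with RPKM, with no filter and with only the strains compared. The genes rpl-41.1 and rpl-41.2 lie close together on chromosome I, and their sequences were not compared. Whether reads were shared between them is not known here, so their values as single genes are uncertain. Their summed TPM averaged 6927 ± 1260.4 in dsb-2, 6019.8 ± 632 in spo-11, 9156 ± 1648 in htp-3 and 10417 ± 1656 in N2 (SD, n = 3 each), with dsb-2 and spo-11 below N2 in all libraries (exact permutation p = 0.1 each). The genes rpl-7 and rpl-7A, and rpl-36 and rpl-36.A, all fell in spo-11 (rpl-7 by 0.34, rpl-7A by 0.57, rpl-36 by 0.75 and rpl-36.A by 0.35 on the log2 scale), the rpl-7 call being lost without N2 replicate 3.

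The rpl-42 gene (chromosome II, 11092713 to 11093871) was nearly undetected outside spo-11. It had 4.55, 3.46 and 7.81 TPM in spo-11, 0.349, 0.0611 and 0.0608 TPM in htp-3, and 0, 0.0626 and 0.0513 TPM in N2. Every spo-11 library was above all other libraries. The gene met the filter through these 3 libraries alone and held at most 116 reads in a library, so its values are given without a test. The 80 other genes held 1221 to 200622 reads per library.

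Setting the common change aside, each library's median over the 81 genes was subtracted and the fit repeated. In spo-11, 12 genes then stood above the family and 9 below it, and 70.3% of all genes tested departed from it. The 12 include rpl-42, whose place follows from the filter. Above the family, beside rpl-11.2 (2.40) and rpl-25.1 (2.37), were rpl-24.2 (0.67) and rpl-41.1 (0.66). Below it were rpl-11.1 (-1.04), rpl-37 (-0.69), rla-1 (-0.46), rpl-25.2 (-0.45) and rpl-30 (-0.39). The count above was 6 without spo-11 replicate 1, 7 without spo-11 replicate 3 and 6 without N2 replicate 1, and the count below was 5 without spo-11 replicate 3 or N2 replicate 1.

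In htp-3 only rpl-11.2 (1.94) and rpl-25.1 (1.83) stood above the family and rpl-11.1 (-0.55), rpl-37 (-0.57) and rpl-25.2 (-0.52) below it at the threshold, and 57.1% of all genes tested departed. The rpl-37 call was lost without htp-3 replicate 3, N2 replicate 1 or N2 replicate 3. The count above was 4 without htp-3 replicate 2. Between htp-3 and spo-11, 5 genes stood above and 6 below, rpl-42 among the 6 by way of the filter, and 49.8% of all genes tested departed. The X-linked genes were among those below, rpl-11.2 at -0.46 and rpl-25.1 at -0.54. The first call was lost without spo-11 replicate 1, spo-11 replicate 2 or htp-3 replicate 2 and the second without htp-3 replicate 2. The count below was 2 without spo-11 replicate 1 and 3 without spo-11 replicate 2, spo-11 replicate 3 or htp-3 replicate 2, and that above 3 without spo-11 replicate 1, spo-11 replicate 3 or htp-3 replicate 2. In dsb-2, 0 of the 81 genes departed, with 0.271% of all genes tested, and 17 did at an unadjusted p under 0.05 in limma. The share of all genes at that unadjusted threshold is not given, so the 17 are not read as a result.

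**Figure D4:**
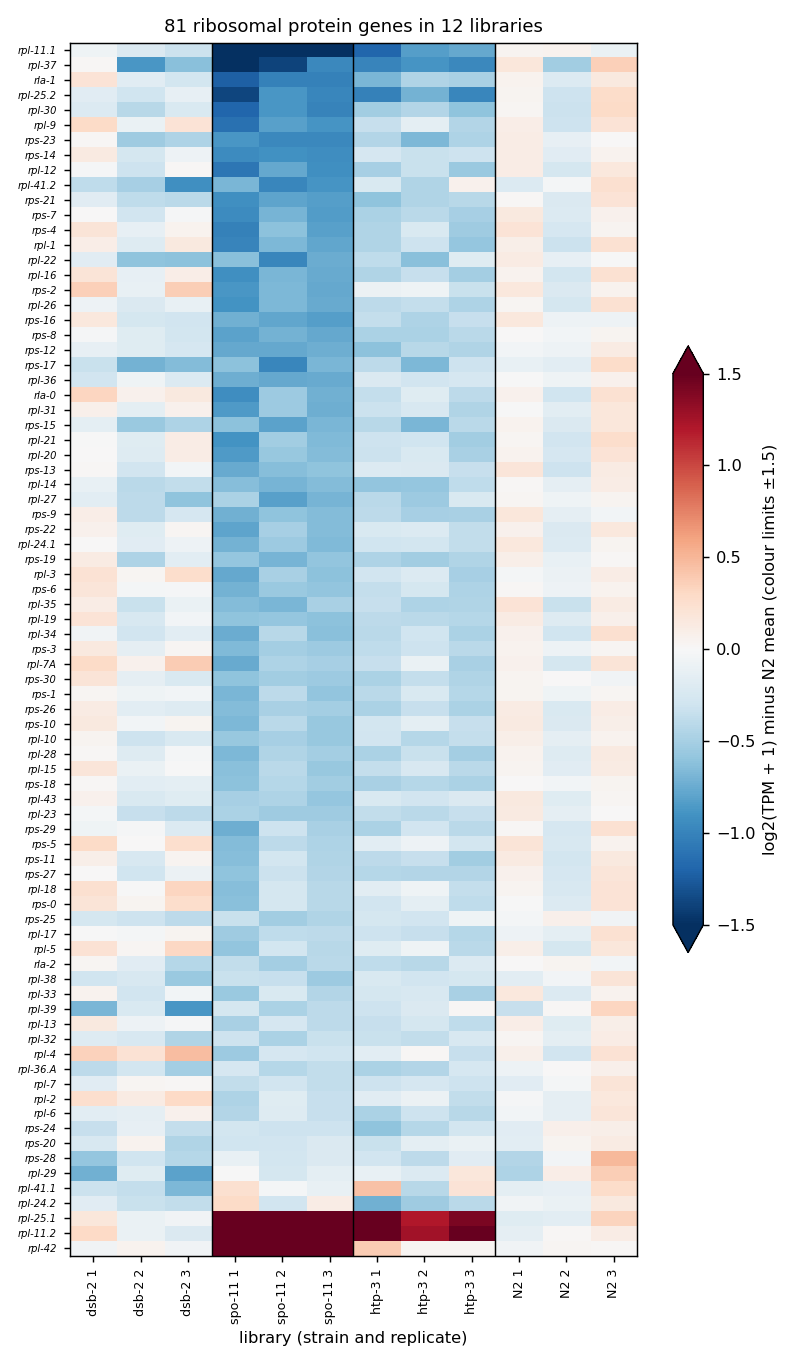
Log2(TPM + 1) of the 81 genes (rows, ordered as in the spo-11 comparison) in the 12 libraries of dsb-2, spo-11, htp-3 and N2 (columns), minus the gene's N2 mean; blue is lower and red higher, with colours limited at 1.5. The rows of rpl-25.1 and rpl-11.2 are red in all spo-11 and htp-3 libraries, and rpl-42 is red in spo-11 alone.

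Within dsb-2 the small values were ordered by transcript length. Over the 81 genes, whose exon lengths ran from 236 to 1336 bp, Spearman's rho between exon length and log2 fold change was 0.77 in dsb-2, -0.02 in spo-11 and 0.14 in htp-3. The same relation over 13641 genes with a length had rho 0.52 in dsb-2, -0.16 in spo-11 and -0.13 in htp-3. These are descriptions across genes, which share their libraries and are not independent. In dsb-2 the 20 shortest genes, of at most 463 bp, had a median of -0.32 and were all negative, while the 20 longest, of at least 777 bp, had a median of 0.04, with 7 negative.

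The pattern was present in each dsb-2 library. The median of the 20 longest genes minus that of the 20 shortest, each relative to the N2 mean, was 0.36, 0.24 and 0.50 in the dsb-2 libraries, -0.08, -0.02 and -0.07 in spo-11, 0.03, 0.19 and -0.16 in htp-3, and 0.05, -0.08 and -0.03 in N2. All dsb-2 libraries were above all others. It was seen in dsb-2 replicate 1, which had the lowest share of reads on listed genes, and in replicates 2 and 3, which had 97.4% and 97.9%. The part of RNA quality or library preparation in it was not tested.

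**Figure D5:**
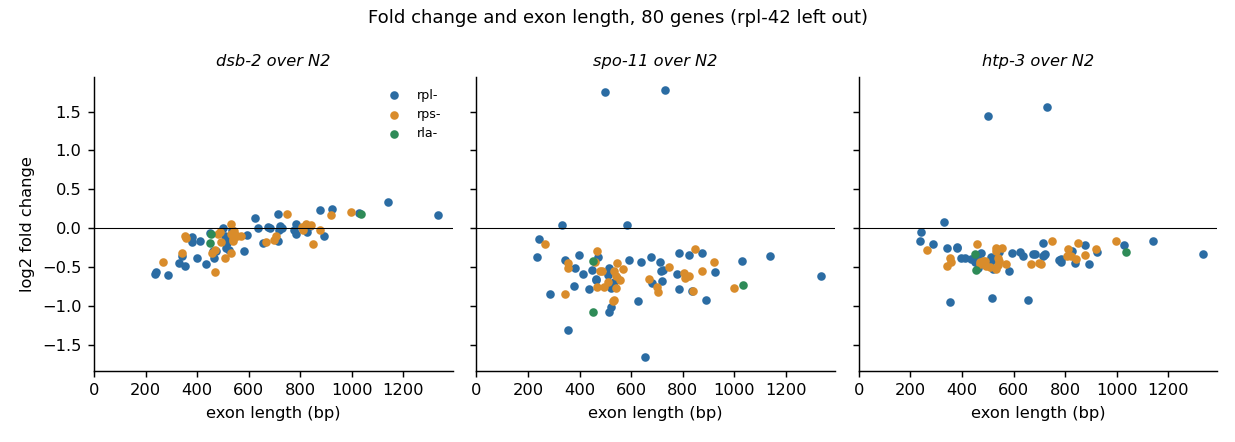
Log2 fold change against N2 and exon length (bp) of 80 genes, without rpl-42, in dsb-2, spo-11 and htp-3; colour marks rpl-, rps- and rla- genes. In dsb-2 the points climb with length (rho 0.77 over the 81 genes), and in spo-11 and htp-3 they show no such slope (rho -0.02 and 0.14).

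Ribosomal components under other names moved with the family. These are ubl-1 and ubq-2, in which a ribosomal protein is fused to a ubiquitin-like protein or ubiquitin, and rack-1, a scaffold on the small subunit. All 3 were lower in spo-11, by 0.54 to 0.64 on the log2 scale: ubl-1 (-0.64), ubq-2 (-0.56) and rack-1 (-0.54). In htp-3, ubq-2 was lower (-0.33, limma adjusted p = 0.0287), and ubl-1 (-0.24) and rack-1 (-0.24) were not called. RefSeq (WBcel235) also gives ribosomal protein names to Y37E3.8 (rpl-27A) and W01D2.1 (rpl-37.1), which the tables list under other names and which are therefore outside the 81. W01D2.1 had 1613, 1658 and 1682 TPM in spo-11, 2312, 2337 and 2377 TPM in htp-3, and 3319, 2963 and 3835 TPM in N2, and was lower in both mutants (-1.02 and -0.52). Y37E3.8 changed by -0.83 and -0.42, and both of its calls passed the threshold.

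Other parts of the translation machinery were examined as lists, to be read against all genes tested, of which 22.1% were lower and 55.6% higher in spo-11, and 19.7% lower and 39.5% higher in htp-3. Those shares are for TPM. With median-of-ratios scaling 5449 of the 13650 genes were lower and 6033 higher in spo-11, and 4743 lower and 4213 higher in htp-3. Of 66 mitochondrial ribosomal protein genes, 50 were lower and 0 higher in spo-11 and 30 lower and 0 higher in htp-3, with medians of -0.61 and -0.44. With median-of-ratios scaling 66 were lower in spo-11 and 59 in htp-3. In spo-11 mrpl-21 had the smallest p, averaging 20.7 ± 1.48 TPM across spo-11 libraries and 90.2 ± 1.30 TPM across N2 libraries (SD, n = 3; -2.08, limma adjusted p = 1.51e-08), and in htp-3 mrps-18C (-0.89). Of 20 cytosolic aminoacyl-tRNA synthetase genes, whose enzymes charge tRNAs, 14 were lower in spo-11 and 13 in htp-3, with 0 higher in either, and with median-of-ratios scaling 19 and 20 were lower. The asparaginyl enzyme gene nars-1 changed by -0.94 in spo-11 and -0.82 in htp-3.

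Of 40 translation factor genes, 29 were lower and 4 higher in spo-11, and 27 lower and 4 higher in htp-3, with medians of -0.63 and -0.58. With median-of-ratios scaling 36 were lower and 3 higher in spo-11, and 33 lower and 3 higher in htp-3. The higher ones included eef-1A.2, an isoform of the factor that brings aminoacyl-tRNA to the ribosome, whose mean TPM was 587 ± 24.8 for spo-11, 363 ± 44.4 for htp-3 and 118 ± 27.8 for N2 (SD, n = 3), with log2 fold changes of 2.33 and 1.63. Also higher was iff-2, a worm gene of the factor eIF5A, whose mean TPM was 542 ± 36.6 for spo-11, 413 ± 69.1 for htp-3 and 138 ± 16.4 for N2 (SD, n = 3), with log2 fold changes of 1.97 and 1.57. The other eIF5A gene, iff-1, was higher in htp-3 than in spo-11, with a mean TPM of 1688 ± 275 for htp-3 and 979.7 ± 155 for spo-11 (SD, n = 3; 0.78).

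Of 40 genes of ribosomal RNA synthesis and ribosome assembly, 21 were lower and 1 higher in spo-11, and 22 lower and 0 higher in htp-3, with medians of -0.47 and -0.52. With median-of-ratios scaling 36 were lower in spo-11 and 32 in htp-3, with 0 higher in either. They included the RNA polymerase I subunit gene rpoa-12 (-1.06 in spo-11) and rpoa-49 (-0.92 in htp-3). Of 17 genes of TOR, Myc-like and growth signalling, 8 were higher and 3 lower in spo-11, near the shares of all genes. In htp-3, again near the shares of all genes, 5 of the 17 genes were higher and 4 lower. Their median in spo-11 was 0.26 with TPM and -0.56 with median-of-ratios scaling, when 5 were higher and 9 lower; in htp-3 4 were then higher and 7 lower. In spo-11 the Max-like gene mxl-1 was lower (-1.41) and the FoxA gene pha-4 higher (1.81). The pha-4 mean was 0.795 ± 0.256 TPM in N2, below the 1 TPM of the filter, and 5.25 ± 0.518 TPM in spo-11 (SD, n = 3). Its call may follow from the filter and is not taken as evidence. In dsb-2, limma called 0 of the 186 tested genes of these 6 lists, with 36 at an unadjusted p under 0.05, and limma-voom called 0. The share of all genes at that unadjusted threshold is not given, so the 36 are not read as a result.

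Markers of tissues and cell types were counted in the same strains, against the same shares of all genes (in spo-11 22.1% lower and 55.6% higher, in htp-3 19.7% and 39.5%), and their part in the ribosomal protein result was not tested. These shares are for TPM. With median-of-ratios scaling 5449 of 13650 genes were lower and 6033 higher in spo-11, and 4743 lower and 4213 higher in htp-3. Of 22 oocyte and eggshell genes, 20 were lower in spo-11 (2 higher) and 20 in htp-3 (0 higher), and with median-of-ratios scaling 20 and 21 were lower with 0 higher, with a summed level of 7689.7 to 8411 TPM in spo-11, 5793 to 9637 TPM in htp-3, and 12490.4 to 14036 TPM in N2. Of 15 germline stem cell and P granule genes, 8 were lower in spo-11 and 10 in htp-3 (14 and 13 with median-of-ratios scaling), with sums of 1073 to 1376 TPM in spo-11, 1008 to 2118 TPM in htp-3, and 2360 to 2607 TPM in N2. Neither list overlapped between the mutants and N2, and 0 of their genes were listed at 0 in all libraries of a strain.

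Of 33 sperm genes tested, some of which may have met the filter through spo-11 alone, 32 were higher in spo-11, and 24 higher and 1 lower in htp-3, where median-of-ratios scaling left 12 higher and 1 lower. How many met it through spo-11 alone was not counted, and for those the higher call in spo-11 follows from the filter and is no evidence. The sums over all 36 genes, to which no filter was applied, were 3872 to 7148 TPM in spo-11, 214 to 745 TPM in htp-3, and 55.6 to 339 TPM in N2, where 1 gene was listed at 0 in all libraries. Of 13 neuron genes, 13 were higher in spo-11 and 11 in htp-3 (12 and 11 with median-of-ratios scaling), with sums of 758 to 973 TPM in spo-11, 432 to 497 TPM in htp-3, and 252 to 328 TPM in N2. Of 12 muscle genes, 11 were higher in spo-11 and 12 in htp-3 (9 and 9 with median-of-ratios scaling), with sums of 6261 to 7815 TPM in spo-11, 4465 to 7299 TPM in htp-3, and 2357 to 3077 TPM in N2.

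Of 12 intestine genes, 6 were higher in spo-11, a share near that of all genes, with 1 lower, and 9 were higher in htp-3, with sums of 7747 to 10502 TPM in spo-11, 5245 to 8247 TPM in htp-3, and 2105 to 3109 TPM in N2. Of 10 hypodermis and cuticle genes, 9 were higher in spo-11, and in htp-3 4 were higher, again near the share of all genes, and 3 lower, with sums of 5452 to 6821 TPM in spo-11, 9699 to 16314 TPM in htp-3, and 3181 to 3708 TPM in N2. With median-of-ratios scaling the intestine median in spo-11 was -0.06 in place of 0.71, with 5 genes higher and 4 lower, and 6 were higher in htp-3. The hypodermis genes then had 4 higher and 1 lower in spo-11, and 3 higher and 5 lower in htp-3. In dsb-2, limma called 0 of the 117 tested genes of these 7 lists, with 19 at an unadjusted p under 0.05, and limma-voom called 0. The share of all genes at that unadjusted threshold is not given, so the 19 are not read as a result. The oocyte genes summed to 14034 to 19747 TPM in dsb-2 and the sperm genes to 51.6 to 209 TPM.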

How the data were processed

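Whole-worm polyadenylated RNA of 4 strains, 3 libraries each, was analysed. Per the file headers the authors deposited RPKM and TPM values for 20222 genes, without counts. Per the submitters' processing notes, reads were handled against WBcel235. The sources used here do not state the aligner, counter or strandedness. From RPKM steps, reads came out whole within 0.05 reads for 18042 of the 18042 genes that had a value in 4 or more libraries. The main test was limma 3.58.1 (R 4.3.3, mean-variance trend) on log2(TPM + 1) over all 12 libraries, keeping genes that reached 1 TPM in 3 or more libraries, with Benjamini-Hochberg adjustment over 13650 genes and a threshold of 0.05. A second fit first subtracted each library's median over the 81 genes. Single values were compared by exact permutation (scipy 1.17.1). The procedure was tested on simulated data.

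Same-numbered htp-3 and spo-11 libraries deviated together (r = 0.12, 0.438 and 0.227 across genes), so the numbers may mark a pairing there. The labels do not say what a number marks. The main fits and the permutation tests were unpaired, and the replicate number entered only as a block in an alternative fit. The block moved no count by over 1.5 times. No batch is given in the labels. P-values measure the spread between these libraries only.

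The members and lists were chosen with earlier results of these data known. The genes named were those sharing a number, the rla- genes, the called genes furthest from 0 in each comparison, members called against the majority, those furthest from the family median, the 5 highest and 5 lowest in N2 and the smallest-p genes of each list. Named outside this rule, after their values were seen, were members of counts of at most 6, Y37E3.8 and W01D2.1. Alternatives were median-of-ratios scaling, RPKM, pseudocounts of 0.1 and 5, no filter, at least 5 TPM, only the strains compared, the replicate block, limma-voom on rebuilt reads, and each library left out.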

Additional observations from a re-analysis of the deposited data

How the results depend on the processing

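Of the values for the 4 comparisons under the alternatives, 271 were labelled unchanged and 37 moved. Unchanged meant within 1.5 times the main value for a count and within the spread between libraries for a median. For a ratio of summed TPM it meant only the same side of 1. No called direction among these values or the named genes reversed. Uncalled values of named genes changed sign with median-of-ratios scaling for rpl-24.2 (-0.80) and rpl-41.1 (-0.80) in spo-11, both then called lower, for rpl-41.1 in htp-3 (-0.35), and between htp-3 and spo-11 for rpl-11.2 (0.20), rpl-25.1 (0.11), rpl-36.A (0.37) and rps-24 (0.28); other uncalled values near 0 changed sign under other alternatives. With median-of-ratios scaling the family medians were -1.41 in spo-11, -0.79 in htp-3 and 0.62 between htp-3 and spo-11, where 54 genes were higher and 1 lower. The dsb-2 median was -0.28 with RPKM and -0.26 with limma-voom on rebuilt reads, which called 9 genes higher between htp-3 and spo-11. With at least 5 TPM, 1 gene was lower there, as rpl-42 did not meet that filter. Relative to the family median, 1 gene (rpl-41.2) was lower in dsb-2 and 5 were lower in spo-11 with only the strains compared, and 4 were higher in htp-3 with a pseudocount of 5 or no filter. The other causes were not tested.

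With each library left out in turn, 28 to 62 genes were lower in htp-3, and between htp-3 and spo-11 9 to 19 were higher and 0 to 3 lower. Relative to the family, 6 to 14 stood above and 5 to 8 below in spo-11, 2 to 4 above in htp-3, and 3 to 4 above and 2 to 6 below between htp-3 and spo-11.

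Among the named members, followed one by one under every alternative, calls lost under at least 1 of them were those of rpl-7 and rps-24 in spo-11, of rla-2, rpl-7, rpl-10, rpl-24.1, rpl-27, rpl-36, rps-14 and rps-24 in htp-3, and of rla-0, rpl-24.1, rpl-30, rps-23 and rpl-24.2 between htp-3 and spo-11, the last with median-of-ratios scaling (-0.18) and without spo-11 replicate 1 (-0.47). Over all 81 genes more calls were lost: of 72 lower calls in spo-11, 64 were shared without spo-11 replicate 1, of 55 in htp-3, 28 without N2 replicate 3, and of 22 higher calls between htp-3 and spo-11, 9 without spo-11 replicate 1. No call was lost for rpl-11.1, rpl-11.2, rpl-25.1 or rpl-25.2 against N2 under the alternatives listed.

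With the replicate number as a block, 0 genes were called in dsb-2, 3 higher and 71 lower in spo-11, 2 higher and 47 lower in htp-3, and 20 higher and 2 lower between htp-3 and spo-11. Against N2 the same-numbered libraries did not all exceed r = 0.1 (at the lowest 0.0651 for dsb-2, 0.0419 for spo-11 and -0.1 for htp-3); 6 of 6 libraries correlated best with their own number in dsb-2, 4 in spo-11 and 2 in htp-3, a hint from the data only.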
